A study of Rattus norvegicus with 9 samples.

Results

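Iron handling in the bone marrow of the osteotomised rat tibia was described through 8 genes taken by symbol from the 41801 genes listed in the files. They were Hmox1, Slc40a1, Fth1, Ftl1, Tfrc, Tf, Slc11a1 and Spic, each listed under 1 identifier.

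Iron in the marrow runs in a loop. Erythroblasts take up transferrin-bound iron to build haemoglobin, and macrophages that clear old or damaged red cells open the haem ring, store the iron in ferritin or release it through ferroportin to be carried by transferrin again. Neutrophils and monocytes hold iron away from microbes, by stripping it from phagosomes or by binding it with secreted proteins.

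Male Sprague-Dawley rats of 6 to 8 weeks, with no genetic change named, received a circular osteotomy of 3 mm in the proximal tibia (TO) and a skin wound of 4 mm on the foot. The TOE rats were also given radial shock waves through the skin over the osteotomy on days 2 and 4, or on day 2 only where tissue was collected before day 4. Tissue of the osteotomy site was profiled by droplet single-cell RNA sequencing at the 3′ end in 8 conditions: TO 2d 0h (before any session), TO 2d 4h, TO 4d 4h, TO 4d 24h, TOE 2d 4h, TOE 2d 24h, TOE 4d 4h and TOE 4d 24h, named by day and by hours after the session. Each condition had 1 library, the number of rats behind a library is not given in the sources used here, and no library for TO 2d 24h was used. TOE and TO were therefore matched in 3 pairs (2d 4h, 4d 4h, 4d 24h) with no replicate and no test.

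Between 12007 and 16409 cells and between 90987814 and 135406897 UMIs (molecule tags, 1 per captured transcript) were kept per library, 111646 cells in all. Pairs of libraries shared between 40 and 110 barcodes. The cells fell into 33 clusters, of which 30 were placed in 11 classes by marker genes that include no iron gene, with B-cell-like cells the largest class at 62103 cells. Only 5 of 10 monocyte markers and 5 of 12 dendritic-cell markers were highest in the class named for them. In every other class most of the markers were. TOE 4d 24h stood apart, with 39 macrophage-like cells, 82 erythroid-like cells that all lay in 1 of the 2 erythroid clusters, and summed erythroid markers of 30.7 CPM in B-cell-like cells against 413 to 1552 CPM in the other 7 libraries. CPM is the number of UMIs of a gene, or a list, per 1000000 UMIs of the same cells. Some clusters came mostly from 1 library: 1990 of the 2089 cells of an unnamed cluster were from TO 2d 4h, and 318 of the 396 cells of a neutrophil-like cluster led by Cxcl3 were from TO 2d 0h. Among monocyte-like cells, the cluster led by Sema3c held between 56.5% and 75.1% of the cells of each 4 h library and at most 3.95% of the others, where the cluster led by Tlr7 held between 71.1% and 79.8%, except in TOE 4d 24h (4.19%). Every interval below is at 95% and covers counting error only.

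**Figure D1:**
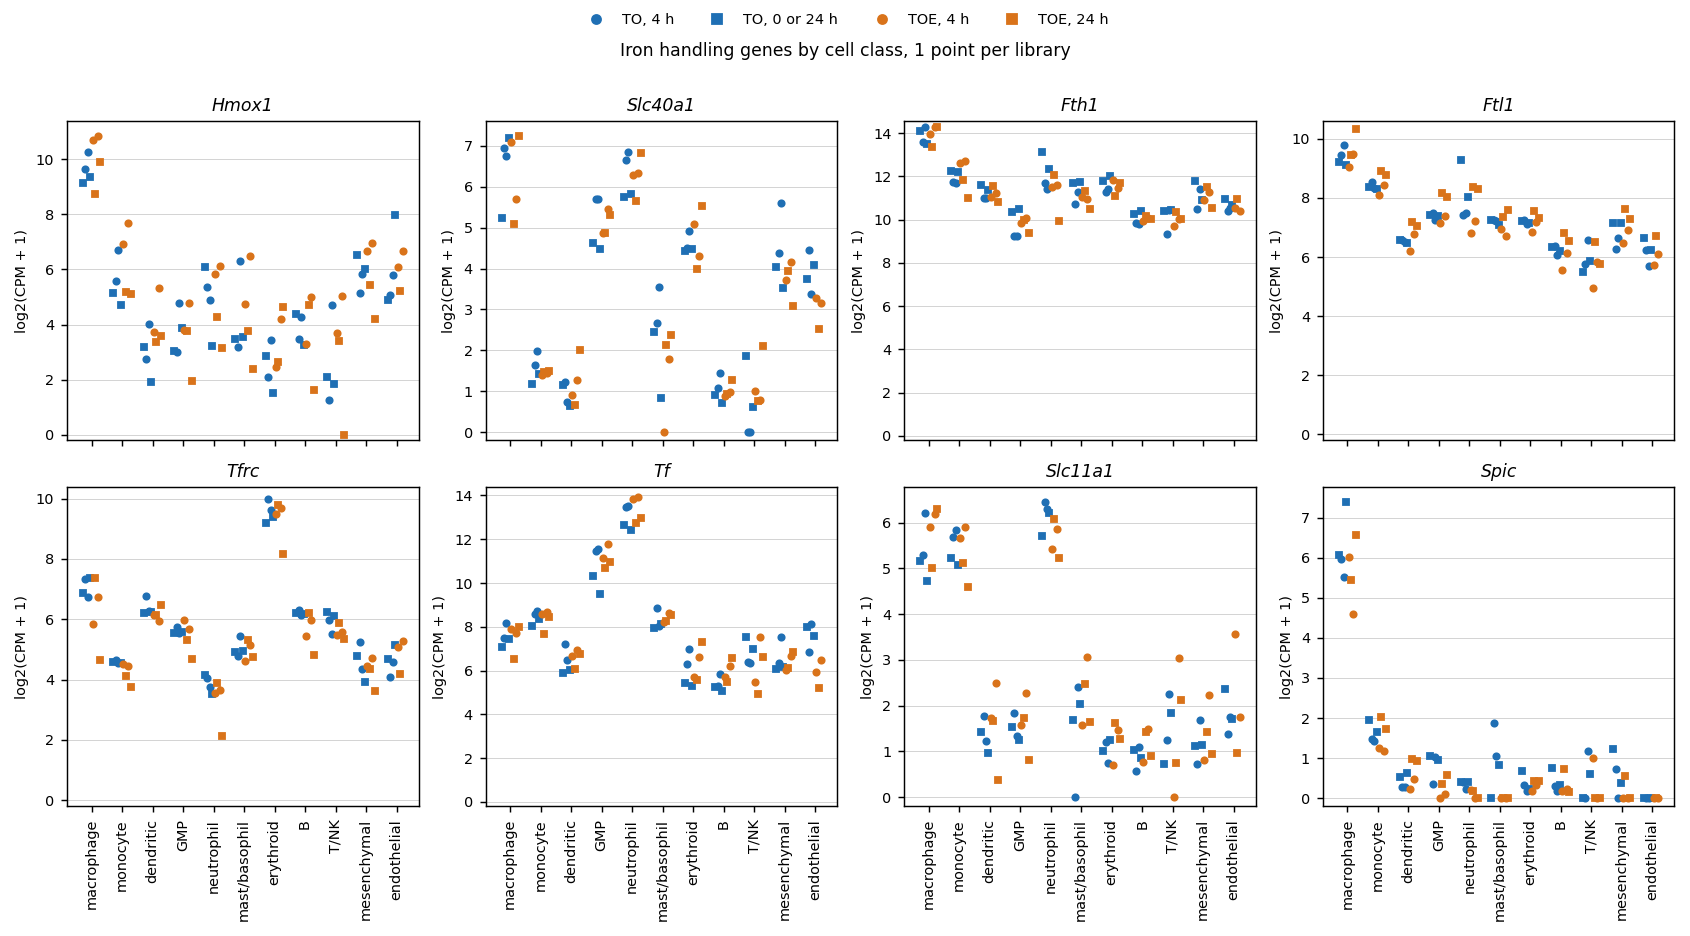
Level of each gene as log2(CPM + 1) in 11 cell classes, 1 point per library (blue TO, orange TOE, circles 4 h, squares 0 h or 24 h, GMP for granulocyte-monocyte progenitor-like). Hmox1, Fth1, Ftl1 and Spic were highest in macrophage-like cells, Tfrc in erythroid-like cells and Tf in neutrophil-like cells, each without overlap with the next class by median (Ftl1 overlapped neutrophil-like cells), whereas Slc40a1 and Slc11a1 were shared between classes.

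Hmox1, the inducible haem oxygenase that opens the haem ring and frees its iron, had 55.5% of its 68594 UMIs (55.1% to 55.8%) in macrophage-like cells, which were 2.65% of all cells. Its level there was 427 CPM at the lowest, 871 CPM at the median and 1819 CPM at the highest over the 8 libraries. The next classes by median, mesenchymal-like (17.3 to 124 CPM), endothelial-like (28.9 to 252 CPM) and monocyte-like (25.4 to 207 CPM), all lay under the lowest macrophage-like library and overlapped each other. Erythroid-like cells were the lowest class, at a median of 5.72 CPM.

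The macrophage-like class was formed by 2 clusters. A cluster of 522 cells led by complement genes (C1q cluster) carried Hmox1 at 2650 CPM and the haemoglobin-haptoglobin receptor Cd163 at 684 CPM. A cluster of 2436 cells led by Spp1 (Spp1 cluster) carried Hmox1 at 889 CPM and Cd163 at 47.6 CPM, and expressed the osteoclast protease Ctsk at 651 CPM against 6.83 CPM in the C1q cluster. At a finer clustering (Leiden resolution 2) a cluster of 424 cells led by Mt3, Atp6v0d2 and Ctsk was named osteoclast-like, and it was not separated here. Cells of the C1q cluster were shallow, with a median of 1403.5 UMIs against 13368.5 in the Spp1 cluster. With every cell thinned to 1000 UMIs, which left out 180 of the 522 cells, 66.4% of C1q cluster cells and 33.5% of Spp1 cluster cells had an Hmox1 UMI, against 72.2% and 72.8% before thinning. In B-cell-like cells (median 4391 UMIs) the same shares were 1.52% and 7.63%. B-cell-like levels of Hmox1 ran from 2.08 to 31.045 CPM over the libraries, and the part of free RNA in these shares was not tested.

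Ferroportin (Slc40a1), the exporter of iron from cells, was split between macrophage-like and neutrophil-like cells. Its level was 32.8 CPM at the lowest, 115 CPM at the median and 150 CPM at the highest library in macrophage-like cells and 49.2, 77.9 and 114 CPM in neutrophil-like cells. The ranges overlapped, and the order of these classes did not hold beyond their spread. The more numerous neutrophil-like cells held 41.6% of the 15293 UMIs (40.8% to 42.3%), granulocyte-monocyte progenitor-like cells 18.7% and macrophage-like cells 17.9%. Without TOE 4d 24h, the neutrophil-like share was 35.6%. Erythroid-like cells followed at a median of 21.6 CPM, while monocyte-like, dendritic-cell-like and B-cell-like cells had medians of at most 1.73 CPM.

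Within the macrophage-like class ferroportin followed the C1q cluster. Its level was 676 CPM there and 49.4 CPM in the Spp1 cluster, and 48.5% against 5.13% of cells thinned to 1000 UMIs had a UMI (55.6% and 16.9% unthinned). In the libraries the C1q cluster ran from 417 CPM in TO 4d 24h to 1385 CPM in TO 2d 4h and the Spp1 cluster from 23.6 to 121 CPM, without overlap. The C1q cluster held between 10.6% and 37.8% of the macrophage-like cells of a library, and class levels below are averages over clusters in these proportions. Spic is a transcription factor needed for the development of iron-recycling macrophages in spleen and marrow. It had 78.2% of its 2750 UMIs in macrophage-like cells (76.6% to 79.7%), at 23.3, 63.1 and 166 CPM as lowest, median and highest library. Monocyte-like cells (1.26 to 3.07 CPM) came next, above dendritic-cell-like cells (0.178 to 0.980 CPM), and these ranges did not overlap. Spic stood at 198 CPM in the C1q cluster and 48.8 CPM in the Spp1 cluster, and their library ranges (135 to 278 CPM and 18.5 to 160 CPM) did overlap. Erythroid markers summed to between 487 and 40563 CPM in the C1q cluster and between 156 and 2611 CPM in the Spp1 cluster, all 15 listed markers being detected in both. Their part in the C1q cluster's iron genes was not tested.

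Ferritin stores iron inside cells in a shell of heavy chains (Fth1, with the ferroxidase site) and light chains (Ftl1). Fth1 in macrophage-like cells was 10588 CPM at the lowest, 16778 CPM at the median and 20135 CPM at the highest library, above monocyte-like cells (2030, 4204 and 6683 CPM) without overlap. Ftl1 had 526 to 1278 CPM in macrophage-like and 270 to 485 CPM in monocyte-like cells. Neutrophil-like cells reached 621 CPM of Ftl1, above the lowest macrophage-like library, and at most 322 CPM without the Cxcl3 cluster described below. Both chains were detected in all 11 classes. The lowest median of Fth1 was that of granulocyte-monocyte progenitor-like cells, at 976 CPM. Their range (599 to 1457 CPM) overlapped that of B-cell-like cells (899 to 1369 CPM). Summed over the libraries, monocyte-like cells held 31.3% of the 2731936 UMIs of Fth1 (17.5% to 46.6% by library) and 35.8% of the 180430 UMIs of Ftl1 (25.4% to 48.0%). They held the largest part in 4 of 8 libraries for Fth1, macrophage-like cells leading in 3 and B-cell-like cells in TOE 4d 24h, and in 7 of 8 for Ftl1. With each cell weighted alike their shares were 22.1% and 20.3%, and they no longer led. The 5 listed Fth1 copies had 0 UMIs, and of 15 listed Ftl1 copies only Ftl1l1 had any (733). Whether reads that match several copies were lost from the Fth1 and Ftl1 counts was not tested.

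The balance of both chains, given as the quotient of Fth1 over Ftl1 UMIs and compared only between cells, differed between clusters. It was 4.16 in the defensin-rich progenitor cluster (lowest library 1.67, highest 7.11) and 19.3 in the neutrophil-like cluster led by Prok2 (4.50 to 31.5). It was 28.7 in the erythroid cluster led by Car1 (20.8 to 35.8). The defensin cluster did not overlap the Car1 cluster, and the Prok2 cluster overlapped both. The Cxcl3 cluster reached 38253 CPM of Fth1 and 702 CPM of Hmox1, and without it Fth1 in neutrophil-like cells of TO 2d 0h was 4145 CPM instead of 8904 CPM. Monocyte-like cells of the cluster led by Treml4 had 10131 CPM of Fth1 and 174 CPM of Hmox1, against 4429 to 5755 CPM and 32.5 to 126 CPM in the Tlr7 and Sema3c clusters. The remaining monocyte-like cluster, led by Mnda, had 2030 CPM of Fth1 and 84.1 CPM of Hmox1.

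The transferrin receptor (Tfrc), through which cells take up iron-loaded transferrin, was highest in erythroid-like cells. Erythroid-like cells held 48.3% of its 87108 UMIs (26.4% to 55.2% by library) and the largest part in 6 of 8 libraries, B-cell-like cells leading in the other two. The erythroid-like level was 288 CPM in the lowest library, 752 CPM at the median and 1008 CPM in the highest. Macrophage-like cells came next at 24.2, 111 and 164 CPM, below every erythroid-like library. At Leiden resolution 2, with an osteoclast-like cluster apart, macrophage-like cells had 20.3 to 46.7 CPM in the libraries of the matched pairs. That is under the dendritic-cell-like (73.5 CPM) and B-cell-like (70.5 CPM) medians of the main clustering. Of the erythroid clusters, the one led by Alas2 (the first enzyme of haem synthesis in red cells) had 1169 CPM and the Car1 cluster 451 CPM. TOE 4d 24h, the lowest library, had no cell of the Alas2 cluster, and without it the erythroid-like range was 577 to 1008 CPM. B-cell-like cells carried 28.1% of the UMIs at a median of 70.5 CPM, and neutrophil-like cells were lowest at 11.98 CPM. In the macrophage-like class Tfrc was 131 CPM in the Spp1 cluster (23.1 to 167 CPM over the libraries) and 69.1 CPM in the C1q cluster (7.39 to 148 CPM), with overlapping ranges.

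Transferrin (Tf), the iron carrier of plasma that hepatocytes secrete, was found mainly in neutrophil-like cells. They held 71.2% of its 1026889 UMIs (71.2% to 71.3%) and granulocyte-monocyte progenitor-like cells another 17.6%. The neutrophil-like level was 5454 CPM at the lowest, 9702 CPM at the median and 15500 CPM at the highest library. The progenitor-like level was 727, 2126 and 3471 CPM, and monocyte-like cells had 206, 362 and 416 CPM. None of these 3 ranges overlapped. Of the 181065 progenitor-like UMIs, 176703 came from the defensin cluster (3991 CPM). The Elane cluster had 128 CPM, below the lowest monocyte-like library, so the place of progenitor-like cells in this order depends on the class given to the defensin cluster. The row of lactoferrin (Ltf), the related iron-binding protein of neutrophil granules, held 824 UMIs in all. Whether reads of that paralog were assigned to Tf was not tested, and the level of Tf is uncertain to that extent.

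Tf and ferroportin differed in their order over the granulocyte clusters. The progenitor cluster led by Elane had 128 CPM of Tf, the defensin cluster 3991 CPM, the neutrophil-like cluster led by Ngp 14449 CPM, that led by Nlrp12 6444 CPM, that led by Prok2 6917 CPM and the Cxcl3 cluster 218 CPM. In every library the Ngp cluster was the highest of these, at 10012 to 19186 CPM. With cells thinned to 1000 UMIs, 99.9% of Ngp cluster cells, 68.5% of defensin cluster cells and 8.05% of Elane cluster cells had a Tf UMI (99.9%, 92.6% and 67.2% unthinned), against 5.49% of B-cell-like and 5.06% of T/NK-cell-like cells (25.4% and 31.1% unthinned). Ferroportin was 17.2 CPM in the Elane, 51.4 CPM in the defensin, 78.8 CPM in the Ngp, 150 CPM in the Nlrp12 and 72.5 CPM in the Prok2 cluster. The Nlrp12 cluster was the highest of these 5 in each of the 8 libraries (120 to 224 CPM). TOE 4d 24h gave 1396 of its 2269 cells and had 150 CPM there.

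**Figure D2:**
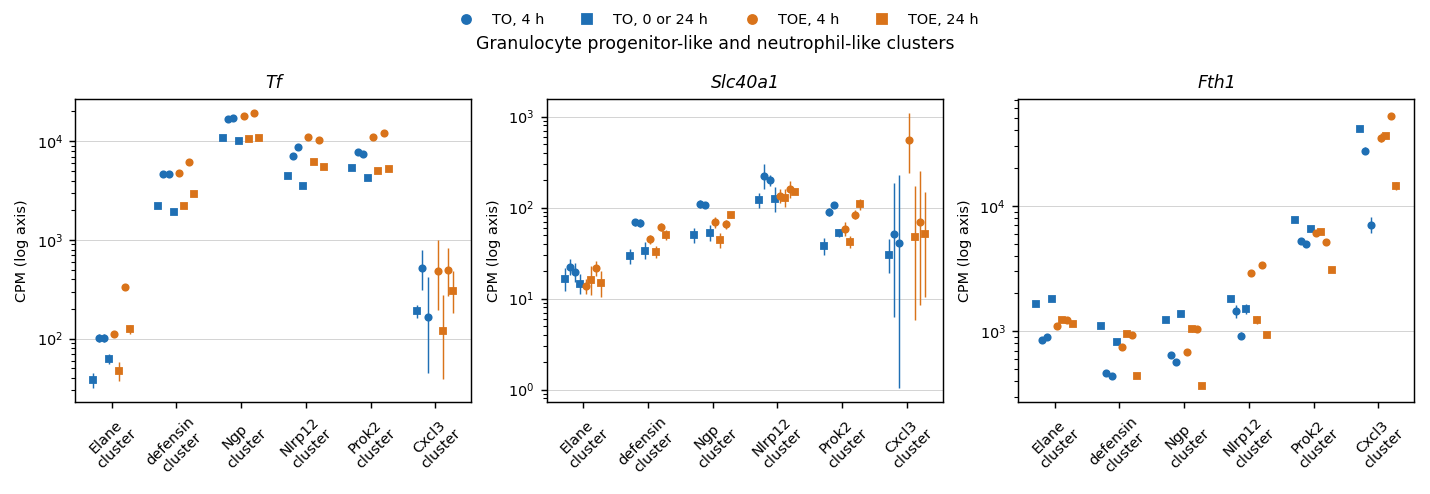
Tf, Slc40a1 and Fth1 in the progenitor-like clusters led by Elane and defensins and the neutrophil-like clusters led by Ngp, Nlrp12, Prok2 and Cxcl3, in CPM on a log axis, 1 point per library with its 95% Poisson interval. Tf was highest in the Ngp cluster, Slc40a1 in the Nlrp12 cluster among the first 5, and Fth1 in the Cxcl3 cluster, which had 20 or fewer cells in all libraries other than TO 2d 0h.

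Promoters of 4 of the 8 genes were found in RefSeq (build GRCr8), and 3 are shown because each gene led in another class: Tf in neutrophil-like, Tfrc in erythroid-like and Spic in macrophage-like cells. Each run is the 250 bases before the annotated start on the minus strand, written 5′ to 3′, with the matches of the motifs searched in capitals.
Tf (chr8:112695377-112695626): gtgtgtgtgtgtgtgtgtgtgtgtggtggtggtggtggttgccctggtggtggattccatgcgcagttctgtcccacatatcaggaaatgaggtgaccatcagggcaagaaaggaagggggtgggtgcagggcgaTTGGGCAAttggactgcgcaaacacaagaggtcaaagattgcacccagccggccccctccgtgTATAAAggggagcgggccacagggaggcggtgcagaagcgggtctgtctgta
Tfrc (chr11:81690319-81690568): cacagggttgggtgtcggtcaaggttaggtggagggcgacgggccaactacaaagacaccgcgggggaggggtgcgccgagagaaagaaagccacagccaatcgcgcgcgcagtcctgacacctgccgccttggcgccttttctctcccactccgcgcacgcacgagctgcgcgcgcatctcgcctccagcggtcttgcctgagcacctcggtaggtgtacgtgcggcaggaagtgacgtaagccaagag
Spic (chr7:24964901-24965150): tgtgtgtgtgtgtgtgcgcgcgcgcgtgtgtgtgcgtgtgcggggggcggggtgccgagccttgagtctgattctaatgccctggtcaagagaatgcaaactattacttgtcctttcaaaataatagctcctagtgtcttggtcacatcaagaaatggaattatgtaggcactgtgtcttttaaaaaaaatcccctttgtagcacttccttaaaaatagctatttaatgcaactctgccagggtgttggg

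Of 5 motifs searched on both strands, matches were found only in the Tf window among the 4 promoters, Slc40a1 being the fourth. A C/EBP-type match (letters TTGCNNAA, found on the complementary strand as TTGGGCAA) began 115 bases before the start and a TATA-type match (TATAAA) 52 bases before it. Among 33469 rat promoters of the same length, 9.22% held the C/EBP-type and 12.9% the TATA-type letters. The PU.1-type letters GAGGAA (23.3% of promoters), the GATA-type letters AGATAA (10.3%) and the antioxidant response element TGACNNNGC (10.1%) had no match in these 4 windows.

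Slc11a1 (NRAMP1), which moves iron and manganese out of the phagosomes of phagocytes, was found in neutrophil-like, macrophage-like and monocyte-like cells. It was 36.3, 62.1 and 86.3 CPM as lowest, median and highest library in neutrophil-like, 25.5, 48.4 and 77.5 CPM in macrophage-like and 22.99, 43.1 and 59.0 CPM in monocyte-like cells, with overlapping ranges. Every other class lay below these, at medians of at most 2.65 CPM. Monocyte-like cells held 52.5% of the 15543 UMIs (26.3% to 70.4% by library) and the largest part in 6 of 8 libraries, neutrophil-like cells leading in the other two, and neutrophil-like cells held the largest part (48.3%) with each cell weighted alike. The Treml4 cluster had the highest level of any cluster, 173 CPM, and after thinning to 1000 UMIs 17.1% of its cells had a UMI against 0.104% of B-cell-like cells (52.3% and 0.633% unthinned). In granulocyte clusters it was 1.85 CPM in the Elane, 2.33 CPM in the defensin, 13.1 CPM in the Ngp, 80.7 CPM in the Nlrp12 and 97.9 CPM in the Prok2 cluster.

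The genes whose levels followed each member most closely were sought over 81 sums of a class within a library, on log2(CPM + 1) among 9269 genes. These sums share libraries, and Pearson's r is a description without a test. Hmox1 was most like LOC103691947 (r = 0.828) and Gpnmb (0.818). Slc40a1 had the lowest leading r of the members (Reps2 at 0.759, then Noct at 0.737 and B4galt6 at 0.732). Tfrc was most like Ncoa4 (0.862), the receptor that delivers ferritin for breakdown, and Car2 (0.850). Tf was most like Ceacam4 (0.971), Fpr2 (0.957), a receptor for formyl peptides, and C1rl (0.945). Slc11a1 went with Lilrb4 (0.946), Il1rn (0.938) and Lilrb1 (0.925), and Spic with Ccl9 (0.924), Folr2 (0.877) and Mt3 (0.873). Fth1 was nearest to Gpnmb (0.792), Spmip2 (0.785) and Cxcl3 (0.783), and Ftl1 to Aif1 (0.821), Clec4a2 (0.814) and Cfd (0.810). Among the members themselves, Fth1 and Ftl1 gave r = 0.725 and Tf and Tfrc r = -0.498.

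The matched pairs asked how iron genes differed with shock waves at the same day and hour. Hmox1 was higher in TOE than in TO in macrophage-like cells of all 3 pairs. Its level was 1651 against 796 CPM in the 2d 4h pair, 1819 against 1239 CPM in the 4d 4h pair and 947 against 648 CPM in the 4d 24h pair. The ratios of TOE over TO were 2.08 (1.98 to 2.18), 1.47 (1.43 to 1.51) and 1.46 (1.30 to 1.64). At 4d 24h the TOE value came from 39 cells, and the direction differed between the clusters, with a ratio of 1.68 (1.49 to 1.89) in the Spp1 cluster and 0.690 (0.444 to 1.03) in the C1q cluster, which had 11 TOE cells. In the 4 h pairs both clusters were higher in TOE, at 1.94 and 1.47 in the Spp1 and 1.78 and 1.23 in the C1q cluster. Monocyte-like cells had ratios of 2.56 (2.39 to 2.74), 2.02 (1.92 to 2.13) and 1.33 (1.15 to 1.53) in the same order of pairs. Within the Mnda cluster these were 3.42, 0.908 (0.806 to 1.02) and 1.04 (0.768 to 1.43), and within the Sema3c cluster 2.29 and 2.67 in the 4 h pairs. At 4d 24h the Tlr7 cluster, with 28 TOE cells, gave 3.51. The Mnda cluster held 92.4% of the TOE and 10.6% of the TO monocyte-like cells in that pair.

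**Figure D3:**
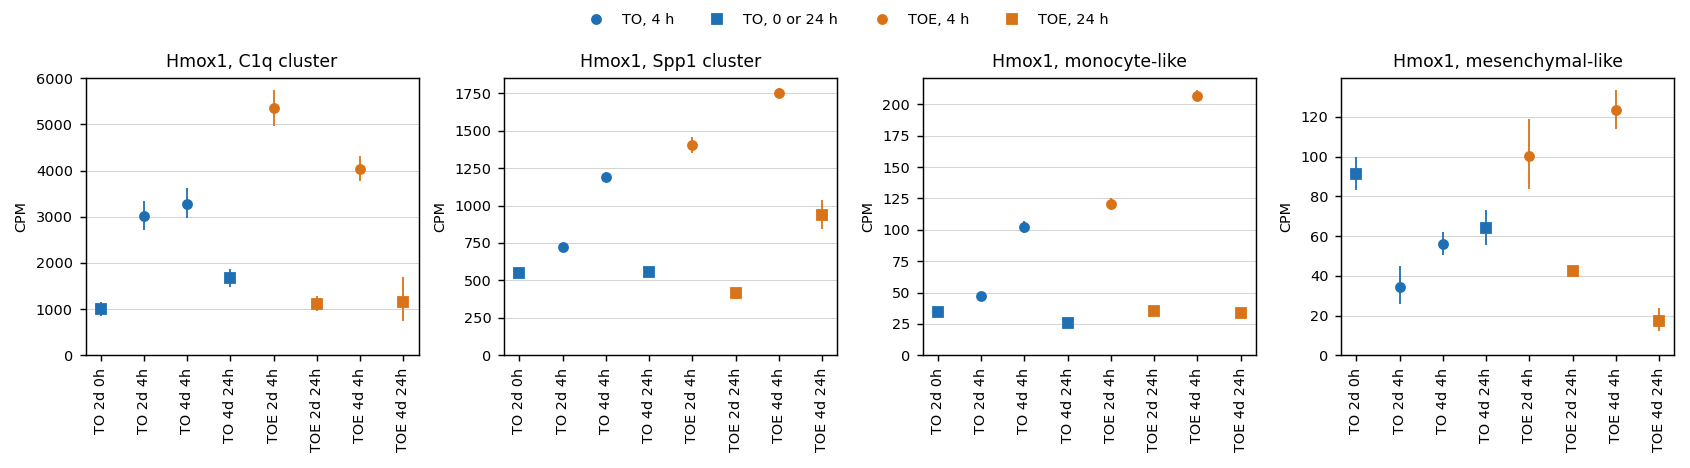
Hmox1 in CPM with 95% Poisson intervals in the C1q and Spp1 clusters of macrophage-like cells, in monocyte-like and in mesenchymal-like cells, for the 8 libraries. In the C1q cluster and in monocyte-like cells the 4 h libraries (circles) all lay above the libraries at 0 h and 24 h (squares), and at each 4 h pair TOE (orange) lay above TO (blue).

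Of the 8 members, all with at least 50 UMIs over each pair in macrophage-like cells, 2 were past 2-fold in the 2d 4h, 1 in the 4d 4h and 3 in the 4d 24h pair. Over all genes with that many UMIs, 4.2%, 3.06% and 16.5% were past 2-fold in these pairs. Hmox1 at 2d 4h was past 2-fold in the class, and not in the Spp1 cluster, in the C1q cluster or at Leiden resolution 2 (1.88). Tfrc was also past 2-fold at 2d 4h, at 55.8 CPM in TOE and 162 CPM in TO (0.345, 0.281 to 0.420). At resolution 2, with an osteoclast-like cluster apart, Tfrc was 20.3 against 46.7 CPM in that pair (0.435). Slc40a1 was the 1 member at 4d 4h, at 50.6 against 107 CPM (0.472, 0.414 to 0.538), and it was lower in the C1q cluster (0.531) as well as in the Spp1 cluster (0.414). At resolution 2 this ratio was 0.508, no longer past 2-fold. Spic, at 23.3 against 44.6 CPM in that pair (0.522, 0.428 to 0.636), was just inside 2-fold. At 4d 24h Ftl1 (1278 against 557 CPM, 2.30) and Slc11a1 (77.5 against 25.5 CPM, 3.04) were higher and Tfrc lower (24.2 against 164 CPM, 0.148, 0.0704 to 0.275) in the 39 TOE cells. At resolution 2, with the osteoclast-like cluster apart, Tfrc was 20.8 against 37.2 CPM in this pair (0.558) and not past 2-fold, while Spic (0.448) was. In these cells the summed erythroid markers were 174 against 2575 CPM (15 of 15 detected), the osteoclast markers 1138 against 1963 CPM (6 of 6) and the neutrophil markers 4905 against 2959 CPM (12 of 12), and their part in these ratios was not tested.

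Monocyte-like cells had more Fth1 in TOE in both 4 h pairs, at 6365 against 3411 CPM (1.87, 1.85 to 1.88) and 6683 against 3285 CPM (2.03, 2.02 to 2.05), and less at 4d 24h, at 2030 against 4709 CPM (0.431, 0.425 to 0.438). In that last pair 92.4% of the TOE monocyte-like cells and 10.6% of the TO cells lay in the cluster led by Mnda, and within that cluster Fth1 was 1703 against 1882 CPM (0.905, 0.872 to 0.939). In the 4 h pairs the Sema3c cluster alone gave 2.13 and 2.10. Past 2-fold were Hmox1 alone of 8 members in the 2d 4h pair, Hmox1 and Fth1 of 8 in the 4d 4h pair (2 members) and Fth1 alone of 7 in the 4d 24h pair, beside 6.14%, 4.1% and 17.7% of all genes. Slc11a1 and Tf in these cells moved by less, with ratios from 0.708 to 1.06.

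Neutrophil-like cells showed Tf higher in TOE in each pair, at 14636 against 11413 CPM (1.28), 15500 against 11685 CPM (1.33) and 7991 against 5454 CPM (1.47). The Ngp, Nlrp12 and Prok2 clusters each pointed the same way in all 3 pairs, from 1.07 to 1.62. Slc40a1 was lower in TOE in both 4 h pairs (0.761, 0.680 to 0.851, and 0.693, 0.631 to 0.760) and higher at 4d 24h, at 112 against 55.4 CPM (2.02, 1.83 to 2.24). In the Ngp, Nlrp12 and Prok2 clusters that last ratio was 1.59, 1.20 (0.877 to 1.70) and 2.06, and the Nlrp12 cluster held 49.8% of the TOE and 4.59% of the TO cells. Fth1 at 4d 24h was 970 CPM in TOE and 5270 CPM in TO (0.184, 0.181 to 0.188), and lower in each of these clusters too (0.265, 0.619 and 0.468). Slc11a1 was lower in TOE at all 3 times (0.487, 0.741 and 0.498). Within the Prok2 cluster its ratios were 0.417, 0.743 and 0.485, within the Ngp cluster 0.770, 1.26 and 1.73, and within the Nlrp12 cluster 0.688, 1.00 and 0.761, the intervals of the last 2 clusters all including 1. The Prok2 cluster held 42.6% of the TOE and 70.3% of the TO neutrophil-like cells at 2d 4h, and 13.9% and 82.7% at 4d 24h. Members past 2-fold numbered 1 of 7 in the 2d 4h pair (Slc11a1), 1 of 7 in the 4d 4h pair (Hmox1, 2.37) and 4 of 7 in the 4d 24h pair (Slc40a1 higher, Fth1, Tfrc and Slc11a1 lower), beside 9.8%, 2.95% and 23.2% of all genes.

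Erythroid-like cells had little difference in Tfrc at 4d 4h (1.04, 1.01 to 1.08) and less Tfrc in TOE at 2d 4h (721 against 1008 CPM, 0.715) and 4d 24h (288 against 670 CPM, 0.430). The share of the Alas2 cluster was 64.5% in TOE and 83.6% in TO in the 2d 4h pair. In the 4d 4h pair it was 80.6% in TOE and 68.7% in TO, and in the 4d 24h pair 0% in TOE and 64.0% in TO. Within the Car1 cluster the 3 ratios were 0.808, 0.871 and 0.700. No member of 6 was past 2-fold at 2d 4h and 4d 4h, and 4 of 6 were at 4d 24h (Hmox1 13.01, Slc40a1 2.10, Tf 4.08, Tfrc 0.430), beside 10.4%, 2.88% and 17.5% of all genes. The Hmox1 levels behind the ratio of 13.01 were 23.8 CPM in TOE and 1.83 CPM in TO, and the summed neutrophil markers of these cells (12 of 12 detected) were 5383 CPM in TOE and 1789 CPM in TO. Their part in the Tf ratio was not tested.

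B-cell-like cells had 0 of 7 members past 2-fold in both 4 h pairs and 4 of 7 at 4d 24h (Slc40a1 2.27, Tf 2.97, Hmox1 0.242, Tfrc 0.385), beside 9.65%, 2.2% and 22.9% of all genes. Tfrc, which dividing lymphoid precursors use to take up iron, was 27.2 CPM in TOE and 70.7 CPM in TO at 4d 24h and 42.9 against 77.3 CPM at 2d 4h (0.555, 0.528 to 0.583). At 4d 24h the cells of the arms lay in different clusters, and 2 clusters held 57.7% and 23.04% of the TOE and 7.22% and 1.92% of the TO B-cell-like cells. Of the 9 clusters with at least 50 Tfrc UMIs over the pair, 7 had ratios from 0.247 to 0.497 and the other two 1.14 and 1.20. These 9 clusters had 27 to 4045 TOE cells each. For Hmox1, 4 clusters had at least 50 UMIs, with ratios of 0.222, 0.260, 1.12 and 1.34. The 1.12 and 1.34 came from the clusters with 45.5% and 16.9% of the TO B-cell-like cells. These clusters held 64 and 27 TOE cells. Tf in these cells was 95.5 CPM in TOE 4d 24h and 32.1 CPM in TO 4d 24h, while the summed neutrophil markers (12 of 12 detected) were 3565 and 1382 CPM and neutrophil-like cells made up 23.4% and 14.9% of the kept cells. Their part in this ratio was not tested.

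In mesenchymal-like cells Hmox1 was higher in TOE at 2d 4h (100 against 34.3 CPM, 2.92, 2.10 to 4.11) and 4d 4h (124 against 55.9 CPM, 2.21, 1.94 to 2.52) and lower at 4d 24h (17.3 against 63.9 CPM, 0.271, 0.186 to 0.385). The summed macrophage markers in these cells were 142 against 150 CPM, 161 against 209 CPM and 59.4 against 77.7 CPM in these pairs (TOE against TO). Within the mesenchymal-like cluster led by Fat3, the Hmox1 ratios were 3.04, 2.25 and 0.285, while the cluster led by Bglap, with 101 TO and 24 TOE cells at 4d 4h, had at most 15 Hmox1 UMIs over a pair. At resolution 2 a mesenchymal-like cluster led by Col14a1 stood apart from the one led by Fat3, and at 4d 4h it held 224 TO and 64 TOE cells against 30 and 115 in the Fat3 cluster. The Hmox1 ratios of that pair were 3.32 and 2.86 in these clusters. At 2d 4h the Col14a1 cluster (8 TO and 26 TOE cells) gave 1.28 and the Fat3 cluster (54 and 46 cells) 2.30. At 4d 24h the Fat3 cluster gave 0.290, and the Col14a1 cluster had 2 TO cells and 1 TOE cell. Past 2-fold were 1 of 5, 2 of 6 (Hmox1 higher, Slc40a1 lower at 0.351) and 1 of 6 members, beside 6.16%, 7.77% and 13.4% of all genes. Over all cells, 0, 1 and 5 of 8 members were past 2-fold beside 9.82%, 4.69% and 22.7% of all genes. The 5 at 4d 24h were Tf (3.04) and Slc40a1 (2.31), higher in TOE, and Fth1 (0.478), Tfrc (0.274) and Spic (0.224), lower, in a pair with 2805 against 2068 neutrophil-like, 39 against 249 macrophage-like and 82 against 823 erythroid-like cells (TOE against TO).

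**Figure D4:**
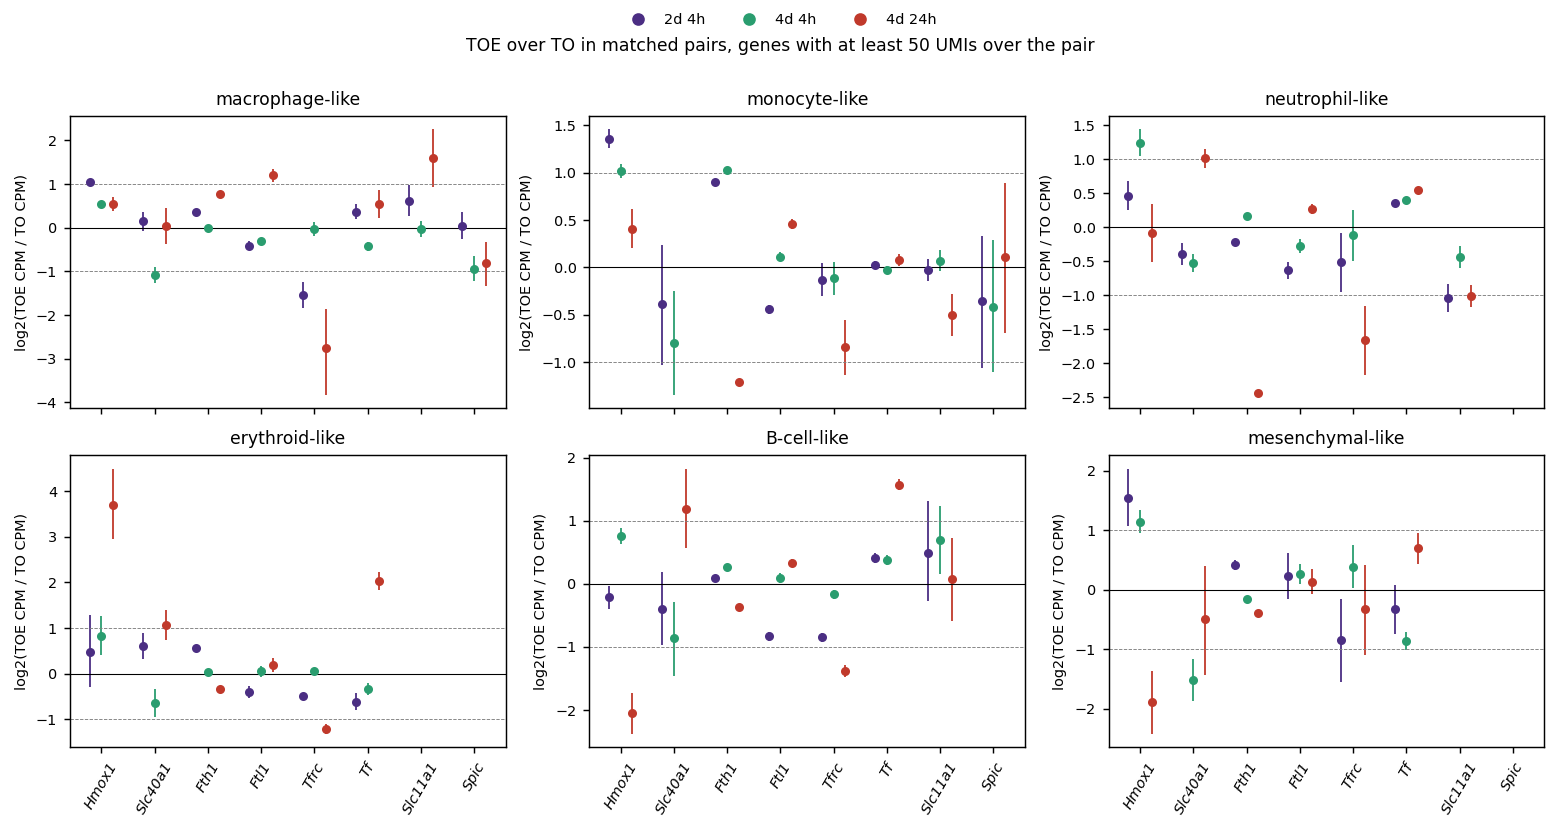
Log2 of the ratio of TOE over TO for each member with at least 50 UMIs over the pair, by class and pair, with 95% counting intervals (dashed lines at 2-fold). Hmox1 lay above 0 in macrophage-like and monocyte-like cells in all 3 pairs, though at 4d 24h its ratio was 0.690 within the C1q cluster and 1.04 within the Mnda cluster. Fth1 in monocyte-like cells lay above 0 in the 4 h pairs and below 0 at 4d 24h, and the widest spread of members was seen at 4d 24h.

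The hour of collection was set beside the iron genes by comparing the 4 libraries at 4 h with the 4 at 0 h or 24 h. Each group holds both arms and both labelled days. In monocyte-like cells 4 of 8 members did not overlap between these groups, beside 21.1% of all genes. Hmox1 was 47.1 to 207 CPM at 4 h and 25.4 to 35.0 CPM otherwise, Tf 380 to 416 against 206 to 344 CPM, Slc11a1 49.8 to 59.0 against 22.99 to 36.4 CPM, and Spic was lower at 4 h, 1.26 to 1.77 against 2.14 to 3.07 CPM. As described, these cells lay in different clusters at 4 h and at the other hours. In neutrophil-like cells 2 of 7 did not overlap (17.7% of all genes), Tf being higher at 4 h (11413 to 15500 against 5454 to 7991 CPM) and Ftl1 lower (111 to 178 against 260 to 621 CPM). Without the Cxcl3 cluster 3 of 7 did not overlap (18.8% of all genes), Hmox1 being added at 23.7 to 65.5 against 5.09 to 17.5 CPM. The Ngp cluster, the highest in Tf, held 26.5% to 37.0% of the neutrophil-like cells at 4 h. At the other hours it held 12.7% to 21.5%, except in TOE 4d 24h (35.7%). In macrophage-like cells 0 of 8 were apart (19.2% of all genes) and in B-cell-like cells 0 of 8 (23.3%). In the Spp1 cluster 0 of 8 were apart (18.2%) and in the C1q cluster 1 of 8 (10.9%), Hmox1 at 3011 to 5346 CPM at 4 h and 995 to 1668 CPM otherwise. Each group held 2 libraries of each arm and 2 of each labelled day. Libraries at 24 h were collected on the day after the labelled day, so the days after injury were not matched between the groups. The hour of day of collection is not given in the sources used here.

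The other genes of iron metabolism were read from 7 lists with 52 genes, 50 of which had at least 50 UMIs. By class level, 16 of the 50 were highest in erythroid-like, 7 in neutrophil-like and 6 in macrophage-like cells. Mesenchymal-like cells led in 6, B-cell-like cells in 5 and monocyte-like cells in 4. T/NK-cell-like and mast-cell/basophil-like cells led in 2 each, and dendritic-cell-like and endothelial-like cells in 1 each. The share of all genes highest in each class was not computed, so these counts are a description only. The 6 of macrophage-like cells were Slc48a1 (144 CPM), which moves haem out of the lysosome, Cd163 (66.0 CPM), Lrp1 (154 CPM), a receptor for haemopexin-bound haem, the haem transporter Flvcr2 (9.17 CPM), the iron sensor Aco1 (28.97 CPM) and Heph (119 CPM), the ferroxidase that acts beside ferroportin. Slc48a1 was 481 CPM in the C1q and 134 CPM in the Spp1 cluster. Cd163 (684 against 47.6 CPM) and Aco1 (61.5 against 28.0 CPM) were also higher in the C1q cluster. Heph (47.8 against 121 CPM), Lrp1 (130 against 155 CPM) and Flvcr2 (0.854 against 9.42 CPM) were higher in the Spp1 cluster.

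In the pairs these lists moved as follows. In macrophage-like cells 3 of 39 genes with enough UMIs were past 2-fold either way in the 2d 4h pair (7.69%), 1 of 40 in the 4d 4h pair (2.5%) and 7 of 32 in the 4d 24h pair (21.9%), beside 4.2%, 3.06% and 16.5% of all genes. All of these were higher in TOE in the 4 h pairs, and 6 of the 7 at 4d 24h. Neutrophil-like cells had 4 of 31, 3 of 34 and 10 of 34 past 2-fold in the same order of pairs (12.9%, 8.82% and 29.4%). Over all genes it was 9.8%, 2.95% and 23.2%. Monocyte-like cells had 3 of 42, 5 of 42 and 5 of 40 (7.14%, 11.9% and 12.5%), beside 6.14%, 4.1% and 17.7%. Erythroid-like cells had 4 of 35, 1 of 35 and 10 of 33 (11.4%, 2.86% and 30.3%), beside 10.4%, 2.88% and 17.5%. Hp, the haemoglobin-binding haptoglobin, was higher in TOE in neutrophil-like cells (3.85 and 3.38) and monocyte-like cells (4.57 and 4.36) at 2d 4h and 4d 4h. The summed neutrophil markers of the monocyte-like cells were 6258 against 4475 CPM and 7308 against 3177 CPM in these pairs (TOE against TO). Their part in the Hp ratios was not tested. In macrophage-like cells Hp was 17.4 CPM, against 14.6 CPM in B-cell-like and 1698 CPM in neutrophil-like cells, and the part of free RNA in its ratios there (6.71 and 2.70) was not tested. Its level was greatest in neutrophil-like cells, at 3067 against 796 CPM at 2d 4h. Slc7a11, the cystine importer, was higher in TOE in macrophage-like cells at 2d 4h (3.22, 2.02 to 5.24) and monocyte-like cells at 4d 4h (2.80), and lower in neutrophil-like cells at 2d 4h (0.351) and 4d 24h (0.269). Flvcr2 was lower in TOE in monocyte-like cells in both 4 h pairs (0.216 and 0.425). In erythroid-like cells the mitochondrial iron importer Slc25a37 was 718 against 1593 CPM at 2d 4h (0.451) and Ncoa4 184 against 375 CPM (0.489), beside the lower share of Alas2 cluster cells given above. In macrophage-like cells of 4d 24h, Slc39a8, a carrier of zinc, manganese and iron, was 131 against 24.6 CPM (5.32, 3.59 to 7.89).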

How the data were processed

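The authors aligned and counted the reads, and deposited for each of the 8 libraries a filtered matrix of UMI counts per gene and cell barcode. The submitters' processing notes name Cell Ranger 9.0.0, Seurat and R 4.0.3, and the builds GRCh38 and mRatBN7.2. The annotation and cell filters were not given in the sources used here.

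From these counts, of 116711 barcodes, 115442 passed a filter (200 or more detected genes, mitochondrial share up to 20%), and barcodes with a Scrublet score above 0.25 were removed (2.43% to 4.15% per library). Cells were scaled to 10000 UMIs and clustered with scanpy 1.11.5 on 2000 variable genes, 30 components, 15 neighbours and Leiden resolution 1, leaving out the members and the other iron genes. No batch correction was used. A cluster took a name from at least 3 raised markers, and 3 clusters (6.47% of cells) stayed unnamed. UMIs were summed per class and library, with exact Poisson intervals for CPM, exact conditional intervals for ratios and Clopper-Pearson intervals for shares (scipy 1.17.1). A ratio was read against 2-fold where the pair held 50 or more UMIs of the gene. The 2-fold call, the interval of a ratio and the ranking by Pearson's r were tested on simulated Poisson counts. The other steps were not tested in this way. Depth limits precision most in classes with few cells.

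The named genes were the 8 members, the 3 genes most like each by Pearson's r, and, of the other iron genes, at most the 2 largest rises and 2 largest falls past 2-fold in a class and pair. The iron genes highest in macrophage-like cells, Ltf and the genes that describe clusters were named after their values were seen. Some genes that the rule names are not reported here. The members and lists were chosen with earlier results of these data known.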

Additional observations from a re-analysis of the deposited data

Results flagged for a closer look

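Fth1 in monocyte-like cells was higher in TOE than in TO in both 4 h pairs and lower at 4d 24h, with ratios of 1.87 (2d 4h), 2.03 (4d 4h) and 0.431 (4d 24h). Hmox1 in mesenchymal-like cells had the same pattern of directions, with ratios of 2.92, 2.21 and 0.271. Both were picked out because the direction turned between pairs. At 4d 24h the Mnda cluster held 92.4% of the TOE and 10.6% of the TO monocyte-like cells. Within that cluster the Fth1 ratio was nearer to 1, as given above. At Leiden resolution 2 the Hmox1 ratio at 2d 4h was 1.28 and 2.30 in the mesenchymal-like clusters led by Col14a1 and Fat3. The differences between pairs were not tested, since each arm of a pair was 1 library.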

How the results depend on the processing

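With 1 library per condition there was no replicate to leave out, and every interval covers counting error only. No paired analysis by replicate number was possible because each condition had 1 library. A fit over the 3 pairs of TOE and TO, matched by day and hour, was not run. Leaving out TOE 4d 24h and taking the macrophage-like clusters singly were chosen after seeing the data. Of the alternatives, 64 kept their value within the counting interval or, for counts of members, within 1.5 times, 65 moved by more and 1 reversed. The leading classes are bounded by the clustering. The defensin cluster, progenitor-like in the main clustering, held 176703 of the 1026889 Tf UMIs and 2276 of the 15293 Slc40a1 UMIs. The part of its placing in the moves of the neutrophil-like shares below was not tested. The cause of the other moves was not tested either.

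With each cell weighted alike, the share in the class that led by UMIs was 52.8% for Hmox1, 49.7% for Slc40a1, 22.1% for Fth1, 20.3% for Ftl1, 43.4% for Tfrc, 77.3% for Tf, 35.8% for Slc11a1 and 81.2% for Spic. The leading class then changed to neutrophil-like cells for Fth1 (22.5%) and Slc11a1 (48.3%) and to B-cell-like cells for Ftl1 (25.1%). Without TOE 4d 24h it was 35.6% for Slc40a1, 32.0% for Fth1, 36.9% for Ftl1, 49.0% for Tfrc, 69.2% for Tf and 54.1% for Slc11a1. With a stricter cell filter it was 54.3% for Hmox1, 56.5% for Slc40a1, 32.4% for Fth1 and 88.6% for Tf. With doublets kept it was 54.0% for Hmox1, 45.1% for Slc40a1, 32.7% for Fth1, 36.6% for Ftl1, 49.3% for Tfrc and 77.1% for Tf. At Leiden resolution 0.5 it was 54.8% for Hmox1, 56.1% for Slc40a1, 32.4% for Fth1, 36.5% for Ftl1, 88.4% for Tf and 53.5% for Slc11a1. At resolution 2 it was 51.9% for Hmox1, 44.0% for Slc40a1, 35.5% for Ftl1, 77.1% for Tf and 66.9% for Spic. With another seed it was 43.8% for Slc40a1, 32.2% for Fth1, 36.1% for Ftl1 and 76.7% for Tf. With the members kept among the clustering genes it was 56.5% for Slc40a1, 32.1% for Fth1, 36.1% for Ftl1 and 88.7% for Tf.

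The Hmox1 ratio of TOE over TO in macrophage-like cells at 2d 4h was 1.94 in the Spp1 and 1.78 in the C1q cluster alone, 2.54 with the stricter filter, 2.56 with doublets kept, 2.48 at resolution 0.5, 1.88 at resolution 2, 2.41 with another seed and 2.30 with the members kept. At 4d 4h it was 1.33 with cells weighted alike, 1.23 in the C1q cluster, 1.54 with the stricter filter, 1.51 with doublets kept and 1.53 at resolution 2. At 4d 24h it was 1.04 with cells weighted alike, 1.68 in the Spp1 cluster, 1.29 with doublets kept and 1.19 at resolution 2, and it turned to 0.690 in the C1q cluster. Members past 2-fold at 2d 4h numbered 1 in either cluster alone and at resolution 2. At 4d 4h they numbered 2 in the Spp1 cluster and 0 at resolution 2.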
